A study of Mus musculus with 4 samples.

Results

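The cells described here are 779 marrow stromal cells of the mouse skeleton that were selected on their own transcripts, first as Cxcl12-abundant reticular (CAR) cells and then by Cxcl14 and Kit. A cell counted as CAR when Cxcl12 reached 50 unique molecular identifiers (UMIs) per 10000 (CP10k) and Bglap plus Bglap2 stayed under 100 CP10k. A CAR cell was a member when Fabp4, Scd1 and Plin1 together stayed under 10 CP10k and Cxcl14 plus Kit reached 3 UMIs. Members were 779 of 1020 CAR cells and of 2825 cells kept in all, 292 of them in the immobilized pool and 487 in the control pool. The mice were C57BL/6J carrying Tnfsf11tTA/+, LC1 and R26-tdTomato: a tetracycline transactivator at 1 Tnfsf11 allele, a Cre that it drives, and a Cre-activated tdTomato reporter. All received doxycycline from E0 to birth, which kept the reporter from being switched on before birth, so tdTomato marks cells with later activity of the Tnfsf11 locus and their descendants, and only such cells were sorted. The immobilized group (6 mice in 1 pool) had hindlimb immobilization for 2 weeks from 8 weeks of age, the control group (4 mice in 1 pool) had none, and all were 10 weeks old at collection. Live CD45.2-Ter119-tdTomato+ cells from enzyme-digested bone and flushed marrow of the femurs and tibias were pooled by group and run on 2 lanes, of which lane 1 was used and lane 2 is a repeat run of the same pool. With 1 pool per group no difference between the groups has a replicate check, so no p-value is given, and every interval covers counting error only, treating UMIs as independent molecules and cells as independent.

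CAR cells are reticular cells of the marrow that secrete CXCL12, the chemokine that holds blood stem cells and B cell precursors in place, and Kit ligand (KITL), on which those stem cells depend. They carry the leptin receptor and the transcription factors EBF3 and FOXC1, and they give rise to adipocytes and, after injury, to osteoblasts. CXCL14 is a homeostatic chemokine of many epithelia and stromal tissues, and KIT is the receptor tyrosine kinase for KITL, best known on blood progenitors, mast cells, melanocytes and germ cells rather than on stroma.

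The bases just before the starts of the 2 genes that define the gate are shown because both genes were counted together in each cell, on the strand of the gene and from RefSeq on GRCm38.p6. They lie at chr13:56296552-56296801 on the minus strand for Cxcl14 and at chr5:75574737-75574915 on the plus strand for Kit, at the first of the 2 Kit starts in the table and ending before the start that GENCODE gives. Capitals mark matches to the EBF core CCCNNGGG or the GC box GGGCGG.
Cxcl14: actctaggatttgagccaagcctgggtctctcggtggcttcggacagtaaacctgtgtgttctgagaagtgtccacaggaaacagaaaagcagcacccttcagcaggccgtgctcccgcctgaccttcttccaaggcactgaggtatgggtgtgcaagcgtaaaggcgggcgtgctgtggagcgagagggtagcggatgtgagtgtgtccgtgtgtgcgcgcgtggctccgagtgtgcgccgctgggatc
Kit: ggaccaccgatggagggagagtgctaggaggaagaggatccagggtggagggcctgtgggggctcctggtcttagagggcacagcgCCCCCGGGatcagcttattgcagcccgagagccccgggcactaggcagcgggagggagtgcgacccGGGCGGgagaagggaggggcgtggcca
Both strands of the bases shown were searched, 250 for Cxcl14 and 179 for Kit. The Kit bases held 1 EBF core, which 8.35% of 32851 RefSeq promoter windows cut to the same 179 bases hold, and 1 GC box, which 20.9% hold. The Cxcl14 bases held neither, where 11.8% and 32.7% of windows of 250 bases hold an EBF core and a GC box. Neither gene held a CCAAT box, which 33.9% of windows of 250 bases and 24.8% of those of 179 hold. The matched letters did not overlap, and a match is a description of sequence only. The genes themselves are protein-coding and lie on chromosome 13 (Cxcl14, 56288643 to 56296551, minus strand) and chromosome 5 (Kit, 75574916 to 75656722, plus strand) of GRCm38.

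The lane 1 libraries held 9960011 UMIs in the immobilized pool and 10732720 in the control pool, over 1751 and 1620 barcodes, of which 1399 and 1426 passed the limits of at least 500 genes and under 10% mitochondrial UMIs. The lanes of a pool shared 1747 and 1617 barcodes, and 269 of 292 immobilized and 461 of 487 control members were members on lane 2 as well. The pools shared 3 barcodes, none of them members. Members had a median of 4916 UMIs and 2439 genes in the immobilized pool and of 4282 UMIs and 2210 genes in the control pool, with 3.05% and 2.64% mitochondrial UMIs. Sex was read in each cell from Xist and 4 Y-linked genes. Females made up 30.2% of the sexed members of the immobilized pool (75 female, 173 male) and 49.5% of those of the control pool (195 female, 199 male), so values within each sex are given where they differ widely.

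Cxcl14 carried the gate and Kit marked a minority of its cells. Every member had a Cxcl14 UMI, and Cxcl14 alone reached 3 UMIs in 291 of 292 immobilized and 484 of 487 control members. Kit alone reached 3 UMIs in 29 immobilized and 75 control members. At least 1 Kit UMI was found in 55 of 292 immobilized members (18.8%, exact 95% interval 14.5 to 23.8) and in 156 of 487 control members (32.0%, 27.9 to 36.4). The cells are therefore called Cxcl14-gated CAR cells here, and those with a Kit UMI are described on their own. At these depths a cell without a Kit UMI may still hold Kit RNA. As a measure of free Kit RNA, osteocalcin-high cells, which should lack Kit, had a Kit UMI in 0 of 162 immobilized cells, which allows a share of up to 1.85%, and in 3 of 329 control cells (0.912%), at median depths of 9562 and 10871 UMIs. Among the few cells with blood markers, 1 of 15 immobilized and 2 of 30 control cells had a Kit UMI (6.67% in each pool), at median depths of 2658 and 3548 UMIs. Markers of the blood cells that use Kit were near 0 in the gated cells: 11 mast cell and progenitor markers summed to 0.353 CP10k in immobilized and 0.256 CP10k in control members, with Cpa3, Ms4a2 and Cd34 at 0 in both.

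The gate cut through a continuous range of Cxcl14. Among CAR cells low in lipid genes, 26 immobilized and 41 control cells sat just inside with 3 UMIs of Cxcl14 and Kit, 27 and 40 sat just outside with 2, 23 and 47 had none, and 190 and 323 had 8 or more. At the Cxcl12 limit, 5 immobilized and 5 control members had 50 to under 60 CP10k, and 18 immobilized and 13 control cells missed the CAR gate with 40 to under 50 CP10k. The other CAR cells were shallower than the members, with medians of 3582 UMIs in the immobilized and 2836 in the control pool. They are mixed: 14 of 94 immobilized and 11 of 147 control cells were kept out by their lipid genes, and these had Kit UMIs in 8 of 14 and 5 of 11 cells, at median depths of 4729.5 and 6347 UMIs.

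**Figure D1:**
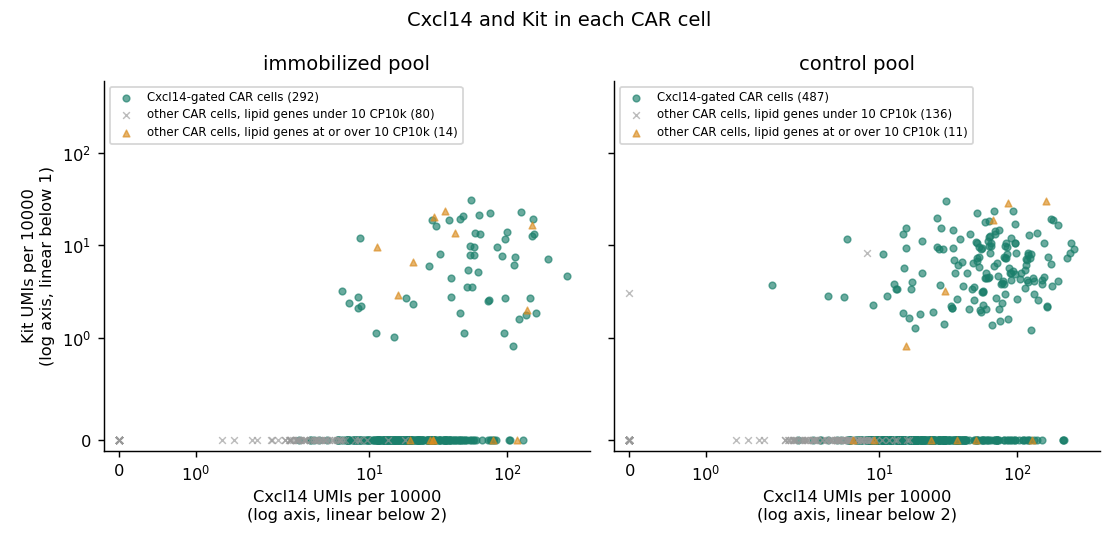
Cxcl14 (x axis) and Kit (y axis) in each CAR cell, both in UMIs per 10000 on log axes that are linear near 0, for the immobilized pool (left) and the control pool (right), with circles for gated cells, crosses for other CAR cells low in lipid genes and triangles for lipid-high CAR cells. Most of the 292 and 487 gated cells lie on the zero line of Kit, and the 55 and 156 with a Kit UMI lie mostly toward high Cxcl14.

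Kit was found mainly in the cells with the most Cxcl14, which is a description because both genes enter the gate. Below 40 CP10k of Cxcl14, the share of members with a Kit UMI was between 3.16% and 12.8% in the 3 immobilized bins and between 7.69% and 19.3% in the 3 control bins. From 40 to under 80 CP10k it was 44.2% in immobilized members (19 of 43) and 59.8% in control members (55 of 92). At 80 CP10k and over it was 79.2% in immobilized members (19 of 24) and 73.8% in control members (59 of 80). Thinned to 2000 UMIs per cell, the shares at 80 CP10k and over were 55.1% in immobilized and 60.1% in control members, and those of the 3 lower bins were between 1.01% and 7.72% in immobilized and between 3.28% and 15.3% in control members. The immobilized shares below 40 CP10k lie on both sides of the 6.67% found among cells with blood markers. Only 24 immobilized members reached 80 CP10k of Cxcl14, against 80 control members. A cell with fewer than 3 Cxcl14 UMIs needed Kit to enter, as 1 immobilized and 3 control members did.

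**Figure D2:**
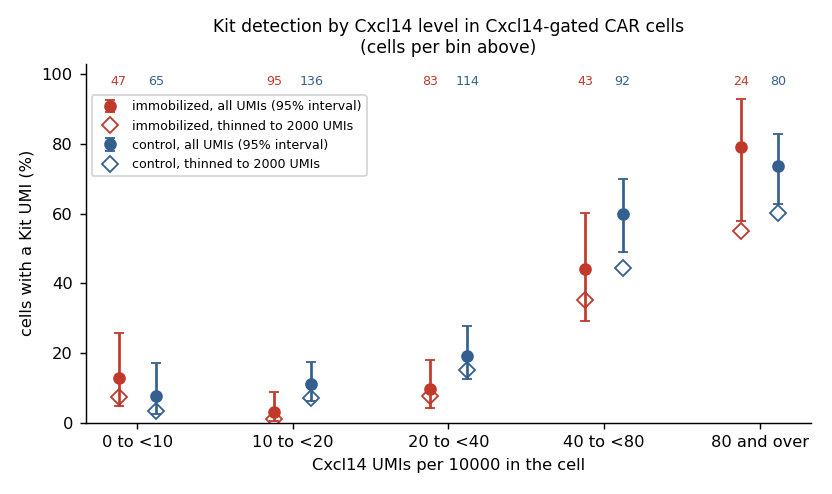
Share of Cxcl14-gated CAR cells with a Kit UMI (y axis, %) in 5 bins of Cxcl14 (x axis, UMIs per 10000) in the immobilized and the control pool, with exact 95% intervals for all UMIs and open diamonds after thinning to 2000 UMIs. Shares stay at or under 19.3% in the 3 lower bins and reach 79.2% and 73.8% in the highest.

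Of the 5 genes that describe these cells, Cxcl12 stood at 156 CP10k (95% interval 154 to 158) in immobilized members and 182 CP10k (180 to 183) in control members. Per-cell Cxcl12 ran over 51.4, 150 and 482 CP10k (lowest, median, highest) in immobilized members and over 55.2, 182 and 412 CP10k in control members, so the pools overlapped nearly throughout. Cxcl14 stood at 34.7 CP10k (33.8 to 35.6) in immobilized and 42.5 CP10k (41.7 to 43.3) in control members, with per-cell values of 3.09, 20.4 and 271 CP10k against 1.86, 26.4 and 259 CP10k (lowest, median, highest). Kit stood at 1.59 CP10k (1.40 to 1.80) in immobilized and 2.26 CP10k (2.07 to 2.45) in control members. The gate sets a minimum for Cxcl12 and for Cxcl14 and Kit together. Scara5, the ferritin receptor, stood at 1.24 CP10k (1.08 to 1.43) in immobilized and 1.34 CP10k (1.19 to 1.49) in control members, intervals that overlap. Serpina3n, a secreted serine protease inhibitor of the acute phase, stood at 1.43 CP10k (1.25 to 1.63) in immobilized and 1.04 CP10k (0.915 to 1.18) in control members, and it belongs to a family of near-identical genes among which counting can be uncertain.

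These averages joined opposite differences in the sexes. Female members had 38.1 CP10k of Cxcl14 in the immobilized and 27.7 CP10k in the control pool (log2 ratio 0.46, 0.37 to 0.55), and male members 33.6 and 53.8 CP10k (-0.68, -0.74 to -0.62). Kit followed the same split, at 2.61 and 1.64 CP10k in female members (0.67, 0.31 to 1.03) and at 1.13 and 2.97 CP10k in male members (-1.39, -1.72 to -1.08), immobilized before control. Scara5 stood at 0.690 and 0.173 CP10k in female members (1.98, 1.10 to 2.92) and at 1.43 and 2.24 CP10k in male members (-0.64, -0.96 to -0.33). Serpina3n was nearly absent from female members, with 4 UMIs in 75 immobilized and 1 UMI in 195 control cells, and stood at 1.98 CP10k in immobilized and 1.97 CP10k in control male members (203 and 192 UMIs). The share of members with a Kit UMI was 24.0% in immobilized and 29.2% in control female members, a difference of -5.23 percentage points (Newcombe 95% interval -15.9 to 7.07). In male members it was 14.5% in the immobilized and 38.2% in the control pool, a difference of -23.7 points (-32.0 to -14.9). Over both sexes the difference was -13.2 points (-19.1 to -6.90), and after thinning to 2000 UMIs the shares were 13.4% in immobilized and 24.0% in control members. The difference between the sexes was not tested, and each sex of a pool is a few mice.

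The share of CAR cells that were members differed between the pools by less than its counting error, while CAR cells as a whole were a smaller share of the immobilized library. Members were 75.6% of immobilized CAR cells (71.0 to 79.8) and 76.8% of control CAR cells (73.33 to 80.05), a difference of -1.17 points (-6.66 to 4.12). With lipid genes kept under 5 CP10k in place of 10 the difference was -5.60 points (-11.3 to -0.0182), and with Kit alone at 3 UMIs as the gate it was -4.32 points (-7.86 to -0.490). Thinned to 2000 UMIs, with the gate lowered from 3 to 2 UMIs of Cxcl14 and Kit, the shares were 70.0% and 73.4%. For these shares 15 immobilized and 54 control CAR cells were left out as shallower. Of all kept cells, members were 20.9% in the immobilized and 34.2% in the control pool, a difference of -13.3 points (-16.5 to -10.0), and this held in female cells (10.6% against 22.3%) and in male cells (36.9% against 59.9%). The last shares move with every other cell type that passed the sort. Lipid-high CAR cells were 3.63% of immobilized and 1.74% of control CAR cells, a difference of 1.89 points whose interval includes 0 (-0.0889 to 4.38).

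The gated cells carried the CAR programme and some osteoblast RNA, mostly Ibsp, and little of the other lineages checked. All 12 CAR markers were found, summing to 360 CP10k in immobilized and 422 CP10k in control members, against 289 and 376 CP10k in the other CAR cells and 22.2 and 19.3 CP10k in kept cells that are not CAR cells. Cxcl12, which the gate requires, is among the 12 and carries a large part of the member sums. The contrast with cells outside the CAR gate therefore rests in part on the selection. Lepr, the leptin receptor, stood at 23.8 CP10k in immobilized and 21.4 CP10k in control members, with a UMI in 98.3% and 97.7% of them. Ebf3 stood at 23.0 and 23.4 CP10k, Foxc1 at 3.63 and 4.49 CP10k, and Kitl, the ligand of KIT, at 19.2 and 22.6 CP10k, in immobilized and control members in that order, so the ligand was far more abundant in these cells than the receptor. Endothelial, adventitial fibroblast and Schwann cell markers each summed to at most 0.128 CP10k in members of either pool, and pericyte or smooth muscle markers to 0.390 and 0.243 CP10k. Osteoblast markers summed to 54.4 CP10k in immobilized and 89.3 CP10k in control members, of which Ibsp, bone sialoprotein, made up 44.2 and 63.3 CP10k, and to 38.0 and 71.0 CP10k in the other CAR cells. Chondrocyte markers summed to 0.0914 and 0.565 CP10k. The 7 haematopoietic markers summed to 3.33 and 4.39 CP10k.

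Against the other CAR cells, few genes stood past 2-fold in both pools, Ret, Serpina3n and Lbp among those higher in members and Angpt4 and Tenm4 among those lower. A gene counted when its ratio of summed UMIs was at least 2 (or at most 0.5), its 95% interval left out 1, and it had at least 20 UMIs on 1 side. No count here is adjusted over genes. Among 8992 genes measured in both pools, 16 were higher (0.178%) and 27 lower (0.3%) in members in both, where single pools gave 214 higher and 178 lower (immobilized) and 253 higher and 175 lower (control). A further 3 genes were higher in the immobilized and lower in the control pool, and 4 the reverse. These contrasts rest on the selection itself and are descriptions. Females were 30.2% of sexed members and 34.7% of sexed other CAR cells in the immobilized pool, and 49.5% and 61.0% in the control pool. The part of sex in the ratios was not tested. The counts moved with the gate: with Kit alone at 3 UMIs as the gate 44 were higher and 70 lower, and in female cells alone 7 and 12.

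Ret, the receptor tyrosine kinase of GDNF family ligands, led by the smaller of its 2 ratios: 0.536 CP10k in members and 0.157 CP10k in other CAR cells of the immobilized pool (log2 1.67, 95% interval 0.60 to 3.26), and 0.293 and 0.0612 CP10k in the control pool (log2 2.05, 0.65 to 4.57). Its values in the other CAR cells rest on 6 and 3 UMIs, and on lane 2 its log2 ratios were 0.78 (immobilized) and 1.64 (control). Serpina3n stood at 1.43 CP10k in members and 0.209 CP10k in other CAR cells of the immobilized pool (log2 2.69, 1.78 to 4.01), and at 1.04 and 0.347 CP10k in the control pool (log2 1.54, 0.88 to 2.39). Better counted were Lbp, the lipopolysaccharide-binding protein, at 5.50 CP10k in members and 2.32 CP10k in other CAR cells (immobilized, log2 1.24) and at 4.21 and 1.98 CP10k (control, log2 1.08), and Gpx3, a secreted glutathione peroxidase, with log2 ratios of 1.10 and 1.01. Also ranked higher were C2, a protease of the complement pathway (1.39 and 1.25), Fmo2, a flavin monooxygenase (1.34 and 1.03), Phlda1, Rgs2, Ecrg4, Pgp, Gpr153 and Serpina3c. On lane 2, where the ranking required the same sign, the immobilized ratios of Phlda1 (0.11) and Gpr153 (0.23) were near 0. Against the other CAR cells low in lipid genes alone, each of the 12 genes ranked higher had a positive ratio in both pools, with 3.21 and 1.76 for Serpina3n. A gate on Kit alone at 3 UMIs moves most members into the other CAR cells, so both sides of the ratio change. With it, the immobilized ratios of Serpina3n (-0.66), C2 (-1.27), Lbp (-0.28) and Gpx3 (-0.31) and the control ratio of Ecrg4 (-0.18) lay on the other side of 0. In female cells alone the control ratio of Serpina3n was -3.26, on the few female UMIs given above.

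On the lower side, Car3, a carbonic anhydrase abundant in adipocytes, had log2 ratios of -5.08 and -2.85, but against the lipid-low cells alone -0.74 and 0.03, so its place rests on the 14 and 11 lipid-high cells. The others held against the lipid-low cells as well. They include Angpt4, a ligand of the TIE2 receptor, at 0.877 CP10k in members and 2.32 CP10k in other CAR cells of the immobilized pool (log2 -1.41) and at 0.598 and 1.35 CP10k in the control pool (log2 -1.18). Tenm4, a teneurin adhesion protein (-1.09 and -1.32), Meis1, a homeobox factor (-1.02 and -0.96), Mef2c, a factor of the myocyte enhancer family (-1.001 and -0.93), and Hpgd, the prostaglandin-degrading dehydrogenase (-0.92 and -0.96), were lower too, with Insyn2a, Slc35f3, Ak5, Cep135, Ppfibp2 and Pced1b. With Kit alone as the gate, which changes both sides as above, the immobilized ratio of Insyn2a was 0.30. The ranking required the same sign on lane 2, where the ratios of Cep135 were -0.20 and -0.04 and the control ratio of Ak5 was -0.18. Of 10 measured genes of the osteo-primed stroma list, 5 were past 2-fold lower in immobilized members (Tnc, Mmp13, Postn, Kcnk2 and Angpt4; median log2 -0.95), and of 11 measured in the control pool 1 was lower and 1 higher (median -0.24). Over all genes measured, 1.95% were lower in the immobilized pool, and 1.73% were lower and 2.5% higher in the control pool, with medians of 0.01 and -0.01. The list summed to 88.7 CP10k in members and 130 CP10k in other CAR cells of the immobilized pool, and to 66.9 and 63.0 CP10k in the control pool, so its sum was higher in members there.

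Members with a Kit UMI differed from the rest of the gate more evenly across the pools. Of 8148 genes measured in both pools, 39 were higher (0.479%) and 40 lower (0.491%) in both, and 1 passed in opposite directions. Depth was close, with medians of 5045 UMIs in Kit-positive and 4831 in Kit-negative members of the immobilized pool, and 4528 and 4196 in the control pool. The sex makeup was not: females were 41.9% of sexed Kit-positive and 27.8% of sexed Kit-negative members in the immobilized pool. In the control pool they were 42.9% and 52.9%. The part of sex in these ratios was not tested. Cxcl14, a gate gene, stood at 78.4 CP10k in Kit-positive and 23.6 CP10k in Kit-negative members of the immobilized pool, and at 77.9 and 24.9 CP10k in the control pool. The split was chosen after the data were seen and uses Kit, so it too is a description.

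The genes higher in Kit-positive members included Sparcl1, a matricellular relative of SPARC, at 0.904 CP10k in Kit-positive and 0.0458 CP10k in Kit-negative members of the immobilized pool (log2 4.21, 3.01 to 5.86) and at 1.11 and 0.0986 CP10k in the control pool (log2 3.45, 2.71 to 4.36). In female cells of the immobilized pool its ratio was -0.28. Cxcl5, a neutrophil-attracting chemokine, had ratios of 3.29 and 3.34, although 30.4% of its UMIs in immobilized members came from 1 cell. Bmper, an extracellular BMP-binding protein, was found in most of these cells: 5.73 CP10k in Kit-positive and 2.11 CP10k in Kit-negative members of the immobilized pool (log2 1.44, 1.17 to 1.71), and 5.32 and 1.66 CP10k in the control pool (log2 1.68, 1.46 to 1.91). Kcnip4, a potassium channel-interacting protein (2.85 and 3.55), Hdac9, a histone deacetylase (3.02 and 2.54), Fndc1 (2.36 and 2.14), Hs3st4, a heparan sulfate sulfotransferase (3.32 and 1.99), Efemp1, a fibulin (1.76 and 1.83), and the limb homeobox gene Hoxa11 (3.43 and 1.55) were higher as well, with Lrrc4c, Etv1 and Anxa3. Hs3st4 had ratios of 4.24 and 2.52 in female cells but 0.71 and 0.20 in male cells of the immobilized and control pools. Kitl was not past 2-fold in either pool (-0.49 and -0.16), and neither was Lepr (0.08 and 0.43).

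The genes lower in Kit-positive members were led by Ptn, the heparin-binding growth factor pleiotrophin, at 0.121 CP10k in Kit-positive and 0.939 CP10k in Kit-negative members of the immobilized pool (log2 -2.80, -4.86 to -1.57) and at 0.199 and 1.61 CP10k in the control pool (log2 -2.97, -3.84 to -2.29). Lifr, the receptor of leukaemia inhibitory factor, had far more counts behind it: 5.64 and 17.9 CP10k in the immobilized pool (log2 -1.66, -1.89 to -1.45) and 6.51 and 16.6 CP10k in the control pool (log2 -1.35, -1.49 to -1.22), Kit-positive before Kit-negative. Mmp13, the collagenase of remodelling bone, stood at 3.50 and 10.8 CP10k (log2 -1.63) and at 2.45 and 6.16 CP10k (log2 -1.33) in the same order. Foxp2, Cadm1, Tenm4, Clstn2, Rtl4, Ppfibp2, Pak1, Elmo1 and Pid1 were lower in both pools too. Ppfibp2 had ratios of -0.48 and -0.51 in female cells but -2.70 and -2.38 in male cells of the immobilized and control pools, and control Mmp13 had -0.63 in female and -4.24 in male cells. Of 10 measured genes of the osteo-primed stroma list, 6 were past 2-fold lower in the immobilized pool (median log2 -1.38) and 5 in the control pool (median -0.81), where 2.56% and 2.2% of all genes measured were lower, with medians of 0.05 and 0.02. Limch1 (-1.46 and -1.30), Mmp13, Postn (-1.51 and -2.44), Kcnk2 (-1.83 and -1.12) and Angpt4 (-1.30 and -2.40) passed in both pools. Spp1, osteopontin, went the other way, with 0.37 and 1.22, so the summed level of the list was 69.0 CP10k in Kit-positive and 93.7 CP10k in Kit-negative members of the immobilized pool but 72.1 and 64.3 CP10k in the control pool. The IGF-binding Igfbp3 (-1.04 and -2.10), the protease Htra1 (-1.02 and -1.95), fibronectin Fn1 (-1.84 and -1.88), the monocyte chemokine Ccl2 (-2.62 and -1.40) and Alpl, the alkaline phosphatase of mineralizing cells (-1.89 and -1.14), were also lower in both.

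**Figure D3:**
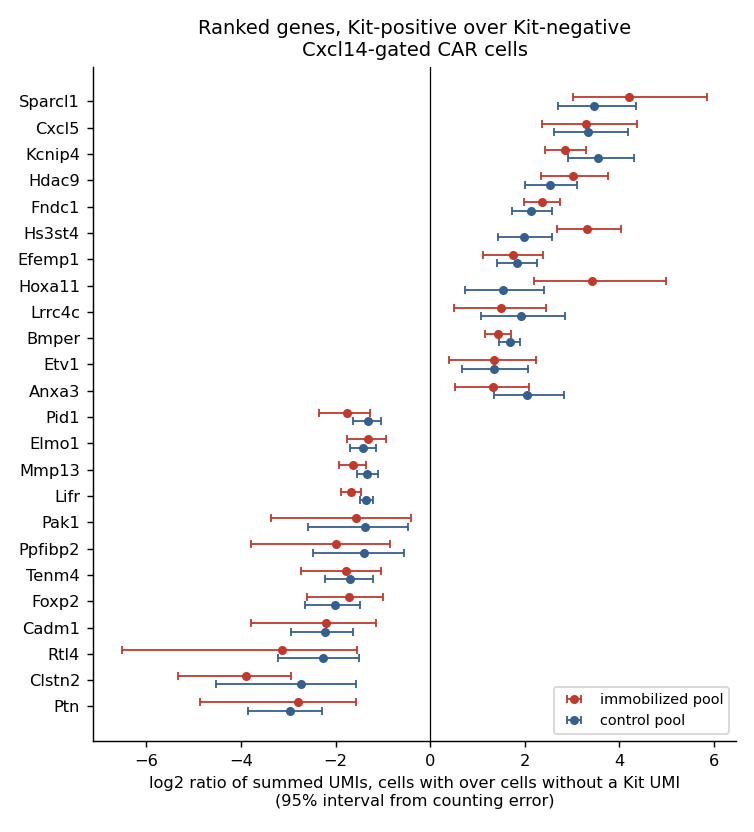
Log2 ratio of summed UMIs in members with over members without a Kit UMI (x axis) for the 24 ranked genes, in the immobilized and the control pool, with 95% intervals from counting error. Sparcl1 reaches 4.21 and 3.45 and Clstn2 -3.90 and -2.73, and the ranking required each gene to lie on the same side of 0 in both pools.

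Immobilization was set against control within the gated cells next. Of 10251 genes measured, 180 were past 2-fold higher (1.76%) and 231 lower (2.25%) in immobilized members, with a median log2 ratio of 0.01 over all of them. In the other CAR cells the counts were 163 higher (3.15%) and 185 lower (3.57%) of 5176. In Kit-positive members they were 106 higher (1.55%) and 211 lower (3.08%) of 6854, and in Kit-negative members 208 higher (2.25%) and 224 lower (2.43%) of 9236. With a median-ratio scaling, 157 were higher and 263 lower, and with a minimum of 50 UMIs in place of 20, 71 were higher and 108 lower. Of the 180 higher genes 98 (54.4%) were also called on lane 2, and of the 231 lower 133 (57.6%), although the lanes share most of their molecules. Of the genes measured within a sex, 2.06% were higher and 3.86% lower in female members, and 2.65% higher and 1.76% lower in male members. Female and male members shared 26 higher genes, 16.05% of 162 called in females and 12.3% of 212 in males, and 21 lower genes, 6.91% of 304 and 14.9% of 141.

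The genes that ranked highest in immobilized members included Frmd5, Vdr and Stk39. Frmd5, a FERM-domain protein, stood at 3.10 CP10k in immobilized and 0.293 CP10k in control members (log2 3.39, 3.04 to 3.78), and 33.8% of its control UMIs lay in 1 cell. Vdr, the vitamin D receptor, stood at 3.17 and 0.623 CP10k (2.34, 2.08 to 2.62), with a UMI in 58.9% of immobilized and 19.3% of control members. Stk39, a kinase that acts on ion cotransporters, was the best counted, at 5.32 CP10k in immobilized and 1.60 CP10k in control members (1.73, 1.56 to 1.91). In the other CAR cells its values were 3.13 and 2.55 CP10k, a log2 ratio of 0.30 whose interval includes 0 (-0.08 to 0.67). The synaptic adhesion gene Clstn2 (3.08), the phosphodiesterases Pde3a (3.07) and Pde3b (2.20), the potassium channel Kcnh1 (2.39), Shisal1 (2.15) and Shisa9 (1.95) ranked between them. The female and male ratios differed widely for Kcnh1 (1.05 in female, with an interval of 0.01 to 2.05, and 2.37 in male members), Pde3b (3.25 and 1.28), Shisa9 (2.05 and 4.17, the male value on 2 control UMIs) and Frmd5 (2.89 and 4.47), while those of Stk39 were 1.63 and 1.82. Shisal1 had no UMI in control male members, against 34 in immobilized ones, and a ratio of 1.44 in female members. Pde3a had a ratio of 0.43 in Kit-positive members, with a wide interval (-3.19 to 3.08), and of 3.06 in Kit-negative members (2.40 to 3.84). With Kit alone at 3 UMIs as the gate, the ratios of Frmd5 (-0.31), Pde3a (-0.37) and Shisa9 (-0.37) lay on the other side of 0.

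Car2 and Car1, carbonic anhydrases that red cell precursors also use, stood at 0.555 CP10k in immobilized and 0.120 CP10k in control members (log2 2.20, 1.60 to 2.87) and at 0.372 and 0.0907 CP10k (2.01, 1.31 to 2.81). Steap3, a ferrireductase, stood at 0.433 and 0.128 CP10k (1.75, 1.13 to 2.42). Haemoglobin RNA was higher in the immobilized pool as well: the adult globin genes Hbb-bs, Hbb-bt, Hba-a1 and Hba-a2 summed to 1.52 CP10k in immobilized and 0.701 CP10k in control members, and to 15.2 and 5.96 CP10k in the other CAR cells. The other CAR cells had 0.261 and 0.163 CP10k of Car1, 0.4175 and 0.265 CP10k of Car2 and 0.339 and 0.224 CP10k of Steap3, immobilized before control. Their log2 ratios there were 0.66, 0.64 and 0.59, each with an interval that includes 0. In osteocalcin-high cells Car1 was at 0.359 and 0.0809 CP10k, Car2 at 0.705 and 0.542 CP10k and Steap3 at 0.0248 and 0.0515 CP10k, immobilized before control, beside globin sums of 0.254 and 0.191 CP10k. The part of red cell RNA in the Car1, Car2 and Steap3 values was not tested.

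**Figure D4:**
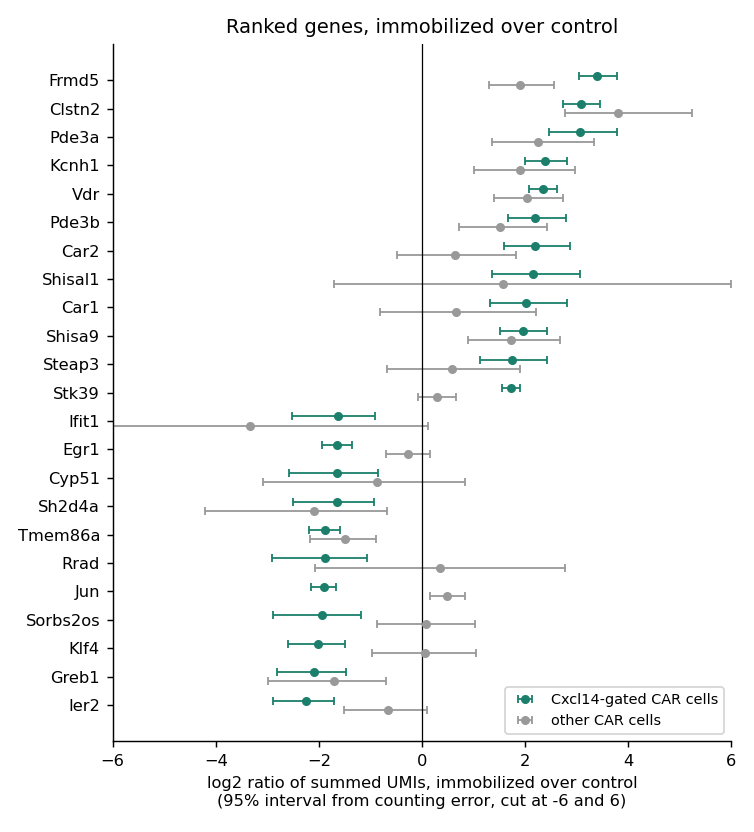
Log2 ratio of summed UMIs, immobilized over control (x axis), for the ranked genes reported in Cxcl14-gated CAR cells and in other CAR cells, with 95% intervals from counting error. Vdr, Clstn2 and Frmd5 lie to the right of 0 in both kinds of cell, while Stk39, Jun and Klf4 lie apart from 0 in the gated cells and at 0.30, 0.49 and 0.06 in the other CAR cells.

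The genes ranked on the lower side included immediate early and interferon-induced genes. Ier2, an immediate early gene, stood at 0.177 CP10k in immobilized and 0.858 CP10k in control members (log2 -2.26), Jun, a subunit of the AP-1 transcription factor, at 0.987 and 3.70 CP10k (-1.90), and Klf4, a Krüppel-like factor, at 0.201 and 0.820 CP10k (-2.01). In the other CAR cells Klf4 had a ratio of 0.06 (-0.96 to 1.04) and Jun one of 0.49 (0.15 to 0.84), on the other side of 0. Greb1 (-2.09), Sorbs2os (-1.95), Tmem86a (-1.88), Rrad (-1.88), Sh2d4a (-1.64), Egr1 (-1.64) and Ifit1 (-1.64) ranked among them. Cyp51, an enzyme of cholesterol synthesis, did too, at 0.0914 CP10k in immobilized and 0.293 CP10k in control members (-1.64, -2.59 to -0.86). Tmem86a, a lysoplasmalogenase, was lower in female members (-1.99) and at -0.05 in male members. Greb1 had 20 immobilized and 140 control UMIs in female members, a ratio of -1.34, and 0 and 3 UMIs in male members, so its pooled -2.09 moves with the share of female cells given above. Jun had -2.44 in female and -0.92 in male members, and Sorbs2os -0.92 with an interval that includes 0 (-2.41 to 0.17) in female and -2.58 in male members. The male intervals of Rrad (-2.51 to 0.23) and Sh2d4a (-2.19 to 0.47) include 0.

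Immediate early genes, which cells switch on within minutes of a stimulus, tissue digestion included, were lower as a group in immobilized members. Of 17 measured, 11 were past 2-fold lower and none higher, with a median log2 ratio of -1.25: Fos (1.62 and 4.14 CP10k in immobilized and control members), Fosb (1.09 and 2.90), Jun, Junb (1.30 and 3.08), Egr1 (0.725 and 2.27), Atf3, Ier2, Dusp1, Zfp36, Myc and Btg2. In the other CAR cells 1 of 13 was lower (median -0.18), with Fos at 3.63 and 3.06 CP10k. Summed over the list, members had 9.99 CP10k in the immobilized and 25.2 CP10k in the control pool, and the other CAR cells 21.4 and 22.2 CP10k. Per cell the difference was smaller, with a median of 3.51 CP10k in immobilized and 6.54 CP10k in control members and highest values of 196 and 504 CP10k, so cells far above the median carried much of the sums. Medians in the other CAR cells were also lower in the immobilized pool, at 4.81 and 6.71 CP10k, with highest values of 274 and 351 CP10k, immobilized before control. The split by sex was wide. In female members 15 of 16 were past 2-fold lower (median -1.87), with sums of 8.92 CP10k in the immobilized and 32.6 CP10k in the control pool, and in male members 2 of 13 were (median -0.44), with 10.3 and 15.3 CP10k. Over all genes measured, 3.86% of 7879 were lower in female and 1.76% of 8005 in male members. In Kit-positive members 14 of 15 were lower (median -1.89) and in Kit-negative members 8 of 15 (median -1.002). The sexes differed within this split. Kit-positive female members (18 and 57 cells) had list sums of 7.61 and 50.3 CP10k, and Kit-positive male members 11.3 and 13.0 CP10k, immobilized before control. Kit-negative members had 9.45 and 25.3 CP10k in female and 10.1 and 16.8 CP10k in male cells. Of all genes measured, 3.08% were lower in Kit-positive and 2.43% in Kit-negative members. The share was 2.25% in members as a whole and 3.57% in the other CAR cells. Of 17 heat shock and unfolded protein genes, which handling of cells also moves, 3 were past 2-fold lower (Hspa1a, Hspa1b and Dnajb1), with a median of -0.52. The part of handling in these values was not tested.

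Interferon-induced genes were lower in immobilized members across the list. All 22 measured had ratios below 0 (median -0.94), and 7 were past 2-fold lower: Isg15, a ubiquitin-like modifier (0.445 CP10k in immobilized and 1.22 CP10k in control members, log2 -1.45), Bst2, the virus-tethering protein tetherin (1.16 and 3.36 CP10k, -1.53), Ifit1, Ifit3, Oasl2, Xaf1 and Phf11d. Here the other CAR cells had 4 of 12 lower (median -0.81), Bst2 among them at 1.23 and 2.71 CP10k. The distribution over cells lay lower at each quartile: the summed list had quartiles of 8.24, 13.4 and 20.8 CP10k in immobilized members and 15.3, 23.5 and 33.5 CP10k in control members. Female members had 16 of 21 past 2-fold lower (median -1.25) and male members 4 of 19 (median -0.53). Of all genes measured, 3.86% were lower in female and 1.76% in male members. The share was 2.25% in members as a whole and 3.57% in the other CAR cells. Summed over the list, female members had 14.6 CP10k in the immobilized and 33.7 CP10k in the control pool, and male members 16.7 and 22.8 CP10k. Single genes differed in this, with Phf11d at -1.69 in female and -1.66 in male members and Ifi204 at -0.60 and -1.12. The difference between the sexes was not tested for either list.

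**Figure D5:**
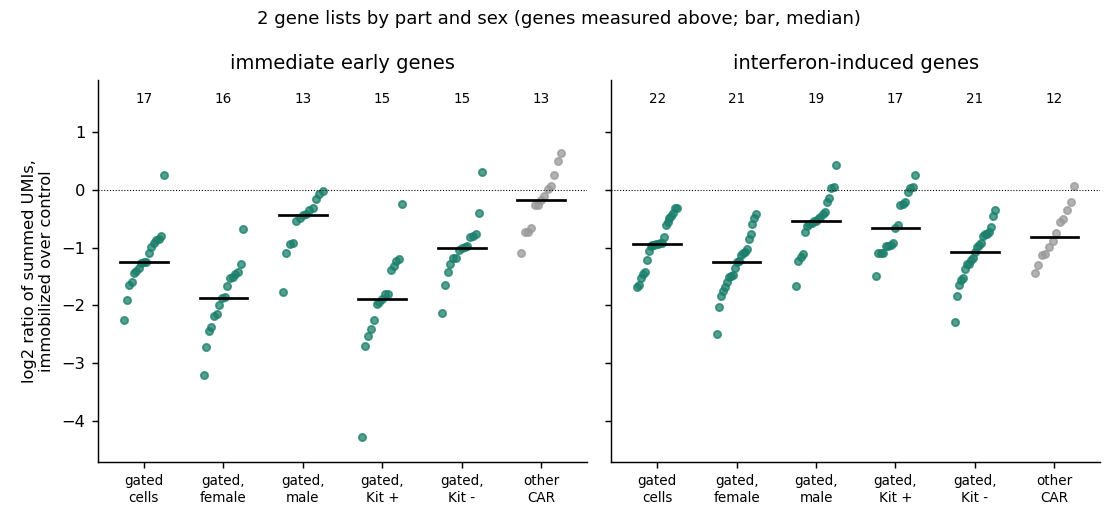
Log2 ratio of summed UMIs, immobilized over control (y axis), for each measured immediate early gene (left) and interferon-induced gene (right), in all gated cells, by sex, by Kit UMI and in other CAR cells, with the number of genes above and a bar at the median. Medians of the immediate early genes run from -1.89 in Kit-positive gated cells to -0.18 in other CAR cells.

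Of 20 CAR stroma genes, 2 (10%) were past 2-fold lower and none higher in immobilized members, and 16 lay below 0 (median -0.26). Of all genes measured, 2.25% were lower and 1.76% higher. Adipoq, adiponectin, stood at 5.00 CP10k in immobilized and 10.7 CP10k in control members (log2 -1.09, -1.21 to -0.98), and at 8.20 and 10.3 CP10k in Kit-positive members. Esm1, endocan, a secreted proteoglycan, stood at 4.91 and 10.6 CP10k (-1.11), and in the other CAR cells at 3.55 and 10.3 CP10k. Of 21 measured factors of the blood niche, Flrt2, an adhesion protein, was past 2-fold higher at 4.31 CP10k in immobilized and 1.79 CP10k in control members (1.27, 1.10 to 1.45), where the other CAR cells had 2.22 and 2.39 CP10k (-0.10). Igf1, the growth factor, came close to the limit at 11.97 and 6.12 CP10k (0.97), and Vegfa stood at 2.62 and 1.68 CP10k (0.64) against -0.42 in the other CAR cells.

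Downstream of KIT, 1 of 24 measured signalling genes was past 2-fold, the adaptor Sh2b2 at 0.146 CP10k in immobilized and 0.0412 CP10k in control members (1.79, 0.71 to 3.06, on 24 and 10 UMIs), and the list's median was 0.08. The counts of this paragraph stand beside shares of 1.76% higher and 2.25% lower over all genes measured in members. A single gene of a list of this size lies near those shares. Of 10 measured chemokine genes, Ccl25 was past 2-fold higher (0.372 and 0.177 CP10k, 1.06) and Cxcl1, Cxcl9 and Cxcl16 lower. Cxcl9 and Cxcl10 came largely from single cells: 62.2% of 230 immobilized and 27.0% of 688 control Cxcl9 UMIs, and 92.3% of 91 and 56.9% of 195 Cxcl10 UMIs, lay in 1 cell. Of 14 genes of ferritin uptake and iron, Tfrc, Steap3 and Hmox1 were past 2-fold higher, Tfrc on 20 and 9 UMIs and Hmox1 with 33.3% of its 81 immobilized UMIs in 1 cell. Among acute phase genes and serpins only Saa3 passed, of 18 measured, and 94.3% of its 35 immobilized UMIs lay in 1 cell. The complement list gave Cd55 higher (1.17) and C3 lower (-1.23) of 10.

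Genes of bone formation passed the limit in both directions. Of all genes measured, 1.76% were higher and 2.25% lower in members, and 3.15% and 3.57% in the other CAR cells. A single gene out of the longer lists lies near those shares. Of 14 osteoblast programme genes, Col1a1 (6.20 CP10k in immobilized and 15.2 CP10k in control members, -1.30), Smpd3 (-2.15) and Col11a2 (-2.07) were past 2-fold lower. Taken gene by gene, 1 control member held 22.5% of the Col1a1, 29.0% of the Smpd3 and 36.6% of the Col11a2 UMIs of that pool, and Col1a1 had ratios of -1.31 in female and -0.15 in male members. Bglap, osteocalcin, a gate gene that CAR cells hold at low level, moved with them at 1.58 CP10k in immobilized and 6.30 CP10k in control members, and at 2.58 and 10.1 CP10k in the other CAR cells. Its part in the collagen values was not tested. Of 11 osteo-primed stroma genes, Limch1 (9.77 and 4.22 CP10k, 1.21) and Fbn1, fibrillin (23.3 and 10.7 CP10k, 1.12), were past 2-fold higher in members, while in the other CAR cells 6 of 10 were, Mmp13 at 25.9 and 7.65 CP10k against 9.36 and 4.93 CP10k in members. That list summed to 88.7 CP10k in immobilized and 66.9 CP10k in control members. The IGF axis gave Igfbp3 higher (1.05), of 13 measured, and the BMP and TGF-beta list Tgfbi higher and Bmp2 and Id1 lower, of 22. The Wnt list gave Wnt5b higher of 16, the matrix list Fbn1 higher of 23, the protease list Mmp11 lower of 18, the transcription factor list Klf2 and Klf4 lower of 27, and the receptor list Vdr higher and Il11ra1 lower of 12. The adipocyte list gave Adipoq lower of 13, and none passed of 8 retinoic acid and axon-guidance genes, 17 clock and glucocorticoid genes and 18 oxidative phosphorylation genes. A list of phosphodiesterases and G protein regulators, chosen with these cells' changes already known, had 7 of 11 higher, with a median of 1.46. That choice favours a high count, so it cannot be set against the shares over all genes. The list summed to 24.6 and 10.7 CP10k in members and to 21.2 and 11.3 CP10k in the other CAR cells, immobilized before control. Of 8 osteoclast regulators Tnfsf11 alone passed.

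Tnfsf11, the gene of RANKL and the locus that drives the reporter, stood at 2.35 CP10k (2.12 to 2.60) in immobilized and 0.923 CP10k (0.807 to 1.05) in control members, a log2 ratio of 1.35 (1.11 to 1.59), and at 1.15 and 1.12 CP10k in the other CAR cells (0.04, -0.57 to 0.63). A UMI was found in 51.7% of immobilized and 23.8% of control members. Kit-positive members had 1.69 and 0.797 CP10k (1.08) and Kit-negative members 2.52 and 0.986 CP10k (1.35), so the ratio was above 2 on both sides of the Kit split. With a gate on Kit alone at 3 UMIs the log2 ratio was 0.60, with an interval that includes 0 (-0.26 to 1.40). The reporter tdTomato stood at 0.829 CP10k (0.695 to 0.980) in immobilized and 0.581 CP10k (0.489 to 0.686) in control members.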

How the data were processed

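Single cells of each pool were captured on a 10x Genomics platform, and the authors deposited per lane a matrix of raw UMI counts per gene and barcode made with Cell Ranger 7.0.0 on mm10, per the submitters' processing notes. The count matrices were used as deposited. Cells were filtered and gated as given at the head of the report, with sums and shares computed with numpy 2.4.6, scipy 1.17.1 and pandas 2.3.3 under Python 3.11.15. Ratios of summed UMIs were scaled by the total UMIs of each profile, with 0.5 counts added, and their 95% intervals are exact conditional binomial. Levels carry exact Poisson, shares exact binomial (Clopper-Pearson) and differences of shares Newcombe intervals. These cover counting error only. Where thinning to 2000 UMIs is given, it is the expected share and cells under that depth were left out. The code for ratios was tested on simulated data.

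Genes were named by rank: the 12 highest and 12 lowest by log2 ratio (for contrasts within a pool, by the pool nearer 0), with a UMI in at least 10% of either part, an interval without 1 and the same sign on lane 2. Contrasts within a pool had to pass in both pools, and the immobilized over control ratios also had to keep their sign under median-ratio scaling. Mitochondrial, ribosomal, globin, immunoglobulin, Y-linked and unnamed genes, Xist and the gate genes were not ranked, and 1 ranked gene is not reported here. Gene lists (25 of pathways, 10 of cell types) held 483 genes, of which 477 matched 1 feature. The members and lists were chosen with earlier results of these data known. The split by Kit UMI, the bins of Cxcl14, the sums per cell, the background cells, the globin sums and the comparison with lipid-low cells were chosen after seeing the data. Scrublet in scanpy 1.11.5 marked 8 immobilized (0.572%) and 12 control (0.842%) cells as doublets, 3 and 6 of them members, and these were kept in the values reported. The strand setting of the counting was not given, so overlapping and antisense genes are uncertain. Figures were drawn with matplotlib 3.10.9.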

Additional observations from a re-analysis of the deposited data

Results flagged for a closer look

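For 19 of the genes named or listed, female and male members moved opposite ways between the pools, each with an interval that left out 0. The lists alone held 477 genes matched to 1 feature, and the intervals are not adjusted over genes. How many of all measured genes differ this way was not counted, so the 19 have no background share to stand beside. Sex was called per cell, so each value compares the female or the male cells of 1 pool with those of the other, and the difference between the sexes was not tested. Values are log2 ratios of immobilized over control.

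Among the genes of the gate and its markers, Cxcl14 had 0.46 in female and -0.68 in male members, Kit 0.67 in female and -1.39 in male members and Scara5 1.98 in female and -0.64 in male members. Among niche factors and regulators of CAR cells, Kitl, the ligand of KIT, had 0.11 in female and -0.53 in male members, Angpt1, a ligand of TIE2, had 0.40 in female and -0.40 in male members, Ebf3, a CAR transcription factor, had 0.28 in female and -0.33 in male members, and Fgf7, a fibroblast growth factor, had 0.34 in female and -0.27 in male members. Fst, the activin-binding follistatin, had 0.52 in female and -0.19 in male members, Spp1 had 0.40 in female and -0.41 in male members, and Col8a1, a network collagen, had -0.21 in female and 0.87 in male members. The chemokine Cxcl10 had -7.05 in female and 3.53 in male members, Cxcl9 had -4.10 in female and 0.51 in male members and Cxcl5 had 1.25 in female and -1.86 in male members. In immobilized and control members, a UMI was found in 2.05% and 3.49% for Cxcl10, 6.16% and 15.2% for Cxcl9, and 6.85% and 8.83% for Cxcl5. Cxcl10 had no UMI in immobilized female members, so its female value depends on the 0.5 counts added. The glucocorticoid-responsive genes gave 2.19 in female and -0.59 in male members for Zbtb16 and 0.70 in female and -0.33 in male members for Tsc22d3. Aldh1a2, a retinoic acid-producing enzyme, had -1.04 in female and 0.76 in male members, Stat5a, a transcription factor activated by cytokine receptors, had -0.53 in female and 0.93 in male members, Zeb2 had 0.22 in female and -0.16 in male members and mt-Cytb had -0.13 in female and 0.10 in male members.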

How the results depend on the processing

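Of 154 alternative values of the main shares, counts and the Tnfsf11 ratio, 130 were classed as the same, 20 as moved, 2 as weaker and 2 as stronger. A share or ratio was the same when it kept its direction and side of the limit or, for some shares, lay inside the main interval. A count of genes was the same when it lay within a fixed fold of the main count, so it may still have changed. The difference in the share of CAR cells that were members was -4.32 points with a gate on Kit alone (at least 3 UMIs) and -5.60 with lipid genes under 5 CP10k, both with intervals without 0. The difference in the share with a Kit UMI was -5.23 in female cells. The log2 ratio of Tnfsf11 was 0.60 with Kit alone. Genes higher in immobilized members numbered 75 with Kit alone, 71 with at least 50 UMIs and 277 with at least 10, and genes lower numbered 141 in male cells and 108 with at least 50 UMIs. Genes higher in members than in other CAR cells in both pools numbered 32 with at least 5 UMIs of Cxcl14 and Kit, 44 with Kit alone, 28 and 10 with Cxcl12 at 30 and 100 CP10k, 8 and 28 with lipid genes under 5 and 20 CP10k, and 7 in female cells. Those lower numbered 70 with Kit alone, 14 with Cxcl12 at 100 CP10k, 12 in female cells and 14 with at least 50 UMIs. Genes higher in Kit-positive members numbered 19 in female cells, 23 in male cells, 15 with at least 50 UMIs and 61 with at least 10. A gate on Kit alone also moves most members into the other CAR cells. With it, the ratios of Frmd5 (-0.31), Pde3a (-0.37) and Shisa9 (-0.37), immobilized over control, changed sign. So did those over other CAR cells of Serpina3n (-0.66), C2 (-1.27), Lbp (-0.28), Gpx3 (-0.31) and Insyn2a (0.30) in the immobilized pool and of Ecrg4 (-0.18) in the control pool. In female cells Serpina3n (-3.26, control), Ak5 (0.15, immobilized) and Ppfibp2 (0.37, immobilized) over other CAR cells and Sparcl1 (-0.28, immobilized) in the Kit split did, and Car3 (0.027, control) did against lipid-low cells. The cause was not tested. Of the values of named genes, 357 of 384 for immobilized over control, 587 of 816 over other CAR cells and 669 of 720 in the Kit split kept direction and side. No paired analysis was possible because each group is 1 pool and its lanes are repeat runs. They share 75.4% (immobilized) and 79.0% (control) of lane 1 UMIs, so lane 2 repeats the sequencing, not the experiment.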
